A study of Mus musculus with 23 samples.

Results

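The 9 endothelial junction and barrier genes were followed in aortic endothelial cells that had been kept in mouse plasma of 4 kinds. They were chosen by gene symbol as genes of tight and adherens junctions and of further endothelial contacts: Cldn5, Ocln, F11r, Esam, Tjp1, Cgn, Cdh5, Pecam1 and Mcam. All 9 were measured, each by 1 probe set, among 24704 named genes on 23 arrays. The cells were a commercial stock of primary endothelium from mouse aorta, and each culture received 10% plasma in place of serum for 48 h. The plasma donors were mice lacking apolipoprotein E and Stabilin-2 (ApoE-Stab2-KO, n = 6 arrays), mice lacking apolipoprotein E and Stabilin-1 (ApoE-Stab1-KO, n = 6), mice lacking apolipoprotein E alone (ApoE-KO, n = 5) or wildtype mice (Wildtype, n = 6), all labelled as strain C57BL/6J. Donors of the 3 knockout plasmas had been on Western diet for 8 weeks. No diet is stated for the wildtype donors, so that donor genotype and donor diet cannot be told apart wherever wildtype plasma is the control. The knocked-out genes are those of the plasma donors, and the labels give no deletion for the cultured cells. No age or sex of the donors is stated, nor whether replicates came from separate cultures or donors. The p-values therefore rest on array-to-array spread that could be technical.

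Neighbouring endothelial cells are sealed by tight junctions and held together by adherens junctions. In tight junctions, claudins form the strands that restrict passage between cells, occludin and the junctional adhesion molecules sit beside them, and cytoplasmic scaffolds such as ZO-1 and cingulin tie the strands to actin. In adherens junctions, VE-cadherin binds its like on the next cell. PECAM-1 and MCAM (CD146) are further adhesion molecules of endothelial contacts that also take part in mechanosensing and in the passage of leukocytes.

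The results turned on 3 of the 9 genes, Cldn5, Mcam and Cgn. Relative to wildtype plasma, Cldn5 fell with ApoE-KO plasma (-0.27 on the log2 scale). With ApoE-Stab1-KO plasma its difference was close in size (-0.25) but just missed an adjusted p of 0.05. Mcam fell with all 3 knockout plasmas, and Cgn differed between the plasmas of the double knockouts. The promoter windows of these 3 genes, from 250 bases before to 50 bases after the annotated start, are given here from RefSeq on GRCm38.p6. The windows are set by distance from the start alone and are not annotated control regions. They read 5′ to 3′ on the strand of the gene, and capitals mark the GC box GGGCGG and the CCAAT box CCAAT on either strand, with no match overlapping another.
Cldn5, chr16:18776597-18776896, + strand: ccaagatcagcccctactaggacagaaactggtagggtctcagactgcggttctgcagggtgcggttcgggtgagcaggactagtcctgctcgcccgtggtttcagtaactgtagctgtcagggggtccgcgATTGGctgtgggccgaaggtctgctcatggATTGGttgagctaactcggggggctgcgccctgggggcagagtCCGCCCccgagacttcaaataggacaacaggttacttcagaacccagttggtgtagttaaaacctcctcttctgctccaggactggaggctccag
Mcam, chr9:44134408-44134707, + strand: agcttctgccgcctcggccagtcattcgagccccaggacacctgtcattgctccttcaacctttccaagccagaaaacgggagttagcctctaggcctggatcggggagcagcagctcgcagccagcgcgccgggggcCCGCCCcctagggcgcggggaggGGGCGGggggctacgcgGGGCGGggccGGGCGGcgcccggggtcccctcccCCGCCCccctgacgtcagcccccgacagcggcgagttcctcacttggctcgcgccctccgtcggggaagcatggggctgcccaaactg
Cgn, chr3:94786433-94786732, - strand: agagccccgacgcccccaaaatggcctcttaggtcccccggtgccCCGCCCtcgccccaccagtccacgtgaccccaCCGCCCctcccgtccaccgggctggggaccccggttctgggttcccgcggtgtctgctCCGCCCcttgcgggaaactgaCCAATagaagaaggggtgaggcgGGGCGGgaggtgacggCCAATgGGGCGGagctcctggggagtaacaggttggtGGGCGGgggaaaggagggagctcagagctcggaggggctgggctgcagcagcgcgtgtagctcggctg
The window of Cldn5 held 1 GC box and 2 CCAAT boxes, that of Mcam 5 GC boxes and 0 CCAAT boxes, and that of Cgn 6 GC boxes and 2 CCAAT boxes. A GC box was found in 35.7% and a CCAAT box in 37.4% of 32841 such windows in the RefSeq table. The G and C content was 58.3% for Cldn5, 72.7% for Mcam and 70.3% for Cgn, against a median of 52.7% over all windows. In all, 6 of the 9 genes had a window in the table, and none of the 7 windows of these genes held the TATA box TATAAA, which 13.6% of all windows held. These matches describe letters in the windows and are not evidence of binding.

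The label of the cells was compared with markers. All 14 endothelial markers lay above the median of the table (4.31 on the log2 scale), as did 3 of 7 smooth muscle markers (Acta2, Smtn and Des, but not Myh11, Tagln or Cnn1), 2 of 8 fibroblast, 4 of 10 epithelial, 2 of 5 mesothelial, 1 of 6 macrophage, 3 of 5 lymphatic and 2 of 6 blood cell markers. Of the epithelial markers Krt8, Krt19, Cldn3 and Ocln, itself among the 9 genes, lay above it, and Cdh1 and Epcam lay below it. The mean level of the endothelial markers per array ranged from 10.27 to 10.39 with ApoE-Stab2-KO, 10.18 to 10.37 with ApoE-Stab1-KO, 10.19 to 10.34 with ApoE-KO and 10.31 to 10.40 with wildtype plasma. Across genes, any pair of arrays had a correlation between 0.992 and 0.997, and no array repeated another.

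Values are log2 expression after RMA, in which all arrays share 1 distribution, so each difference is relative to the other genes of the array. The probe sets of Cgn and Ocln were dim, brighter than 55.5% and 60.4% of all genes, whereas those of the other members were brighter than 94.6% to 99.9%. Differences between probe sets depend on the probes, so levels were compared only within a gene. In bulk RNA of this kind, fewer cells that express a gene and less RNA per cell cannot be told apart. Over the 4 plasmas, 3 of the 9 genes passed limma's moderated F-test, at a p under 0.05 after Benjamini-Hochberg adjustment, where 0.546% of all genes did. They were Mcam (adjusted p = 0.000377), Cldn5 (0.0139) and Cgn (0.0251). The other 6 had adjusted p-values of 0.28 for F11r, 0.508 for Esam, 0.526 for Tjp1, 0.62 for Cdh5, 0.71 for Ocln and 0.942 for Pecam1. Leaving out any of the 23 arrays kept Mcam and Cldn5 past the threshold. Cgn missed it without ApoE-Stab1-KO replicate 1 (0.055), 4 (0.0539) or 5 (0.0515), and also with the replicate number as a block (0.0793).

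**Figure D1:**
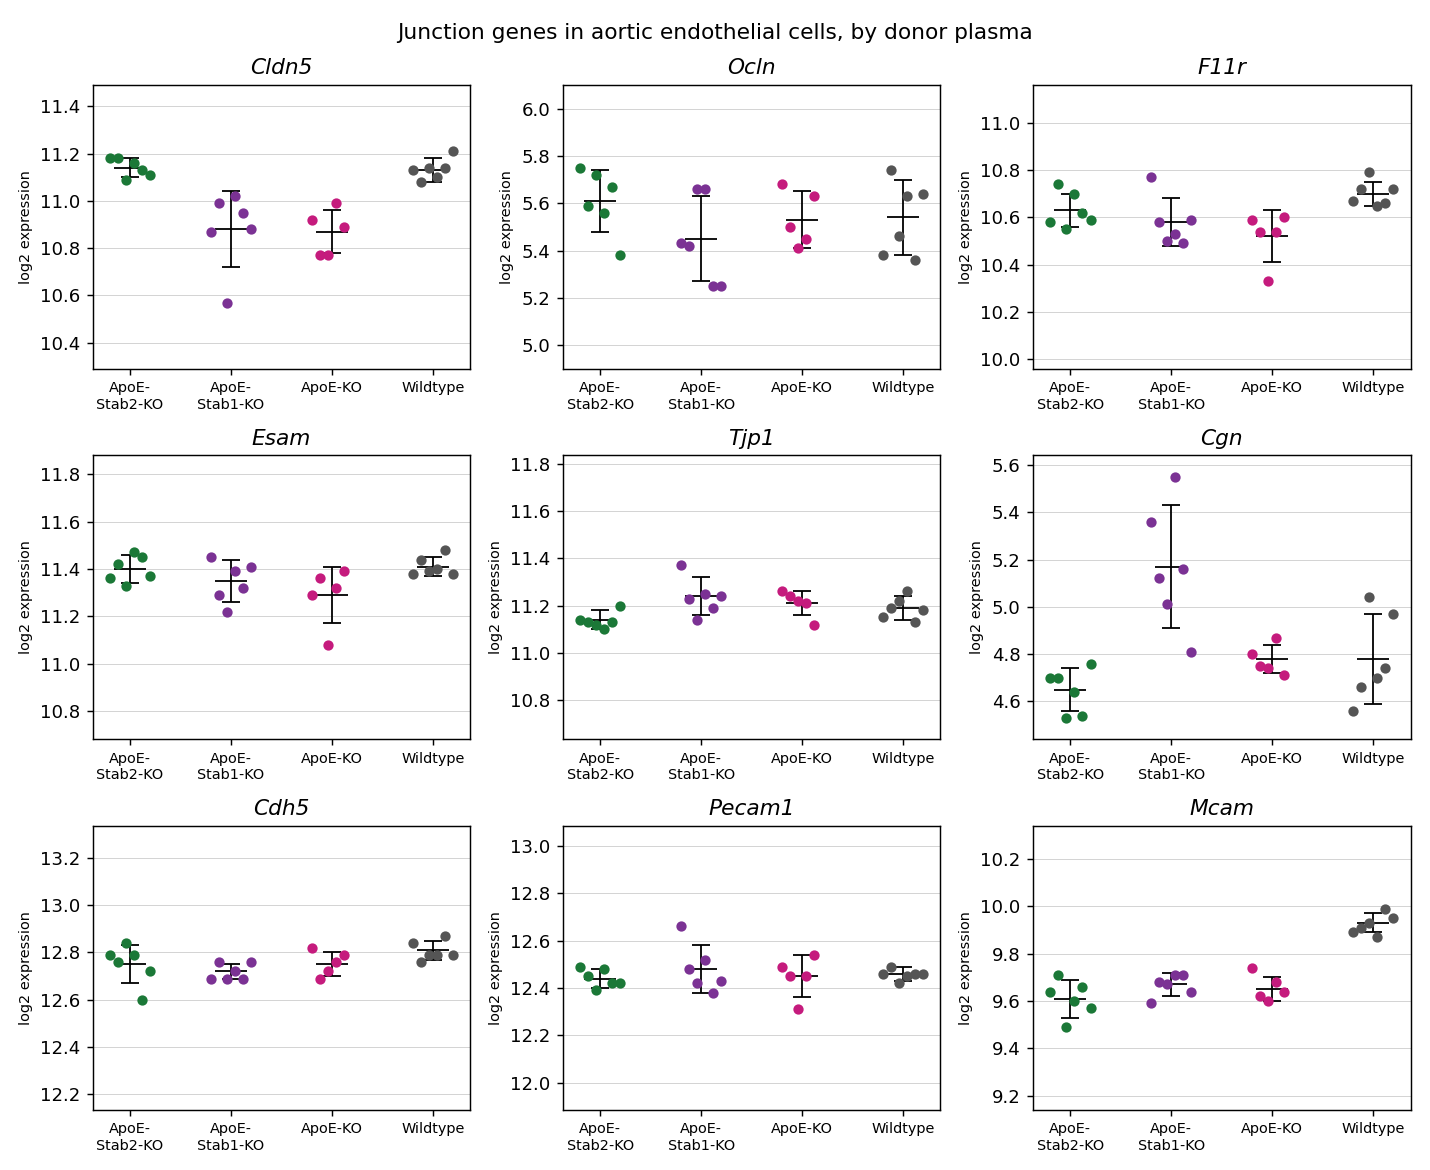
Log2 expression of the 9 genes (y axis, log2 units, each panel spanning the same range) in every array (points), by donor plasma (x axis), with bars for the mean and SD of 5 or 6 arrays. Mcam is lower in all 17 knockout plasma arrays than in the 6 wildtype ones, Cldn5 is lower in the ApoE-Stab1-KO and ApoE-KO arrays than in the ApoE-Stab2-KO and wildtype ones, and the mean of Cgn is highest with ApoE-Stab1-KO plasma.

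Cldn5 encodes claudin-5, the main claudin of endothelial tight junctions, known for limiting the passage of small molecules across brain vessels. Its log2 level was 10.92, 10.77, 10.77, 10.99 and 10.89 in the 5 ApoE-KO arrays. The 6 ApoE-Stab1-KO arrays lay at 10.57 to 11.02 with a median of 10.91, the 6 ApoE-Stab2-KO arrays at 11.09 to 11.18 with a median of 11.15, and the 6 wildtype arrays at 11.08 to 11.21 with a median of 11.14. All 11 arrays with ApoE-KO or ApoE-Stab1-KO plasma were thus below all 12 arrays with ApoE-Stab2-KO or wildtype plasma. The same split, read off Cldn5 after its values were seen, held for 3 of the 24704 genes (0.0121%), and the other two were the gene models Gm16617 and Gm13609.

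With ApoE-KO plasma, Cldn5 averaged 10.87 ± 0.09 (SD, n = 5), against 11.13 ± 0.05 (SD, n = 6) with wildtype plasma, and it fell by 0.27 on the log2 scale, with an SE of 0.06 (0.831-fold, limma adjusted p = 0.0459). Cldn5 and Mcam were the 2 of 9 members called in this comparison, where 0.53% of all genes were. The arrays of the 2 groups did not overlap, which was the case for 1.98% of all genes. The call of Cldn5 was lost when any 1 of 10 of the 11 arrays was left out (0.0555 to 0.151) and held without ApoE-KO replicate 4 (0.0365), while the difference stayed between -0.30 and -0.24.

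With ApoE-Stab1-KO plasma, Cldn5 averaged 10.88 ± 0.16 (SD, n = 6). Its difference from wildtype was -0.25 ± 0.06 (SE, 95% interval -0.37 to -0.14) and just missed the threshold (limma adjusted p = 0.0508). Its arrays did not overlap, which was the case for 0.854% of all genes. It passed without ApoE-Stab1-KO replicate 2 (0.0407) or 4 (0.0346). With ApoE-Stab2-KO plasma, Cldn5 averaged 11.14 ± 0.04 (SD, n = 6), and the difference from wildtype was 0.01 (95% interval -0.11 to 0.13, adjusted p = 0.986).

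Set against each other, the knockout plasmas gave a difference of Cldn5 of 0.27 (95% interval 0.15 to 0.40) for ApoE-Stab2-KO minus ApoE-KO, 0.26 (0.14 to 0.38) for ApoE-Stab2-KO minus ApoE-Stab1-KO and 0.01 (-0.11 to 0.14) for ApoE-Stab1-KO minus ApoE-KO. None passed over all genes (limma adjusted p = 0.156, 0.0813 and 0.997). Ordered by limma's unadjusted p, Cldn5 stood at rank 22 of 24704 genes for ApoE-Stab2-KO minus ApoE-KO and at rank 43 for ApoE-Stab2-KO minus ApoE-Stab1-KO. Its arrays did not overlap in either, which was the case for 1.33% and 0.806% of all genes. Without ApoE-Stab1-KO replicate 4 the adjusted p of ApoE-Stab2-KO minus ApoE-Stab1-KO was 0.0499.

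Mcam encodes an immunoglobulin-type adhesion molecule of endothelial contacts. Its log2 level was 9.74, 9.62, 9.60, 9.68 and 9.64 in the ApoE-KO arrays. It lay at 9.49 to 9.71 with a median of 9.62 in the ApoE-Stab2-KO arrays, at 9.59 to 9.71 with a median of 9.67 in the ApoE-Stab1-KO arrays, and at 9.87 to 9.99 with a median of 9.92 in the wildtype arrays. Every one of the 17 arrays with knockout plasma was below every one of the 6 with wildtype plasma. This split, read off Mcam after its values were seen, held for 17 of all genes (0.0688%). It held for the catenin gene Ctnna1, Efna1, Efnb2, Fbp1, Nr4a1, Igfbp3, Ldb2 and Adgrl4. It also held for Smad1, Pdgfb, Ptprm, Ets1, Egfl7, Dll4, Ttyh1 and Dipk2b. Taken alone, the ApoE-Stab2-KO arrays did not overlap with the wildtype ones for 1.15% of all genes.

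Relative to wildtype plasma, Mcam fell with each knockout plasma. It fell by 0.31 with an SE of 0.04 with ApoE-Stab2-KO plasma (0.805-fold, limma adjusted p = 0.000385), by 0.26 with an SE of 0.04 with ApoE-Stab1-KO plasma (0.835-fold, 0.00284) and by 0.27 with an SE of 0.04 with ApoE-KO plasma (0.829-fold, 0.00148). It was the 1 of 9 members called with ApoE-Stab2-KO plasma, where 0.178% of all genes were called, and the 1 of 9 called with ApoE-Stab1-KO plasma, where 0.364% were. These 3 comparisons share their wildtype arrays. Each call held when any array of its groups was left out, with adjusted p-values of at most 0.00221, 0.0103 and 0.0093. Between knockout plasmas the differences of Mcam were -0.04 (95% interval -0.13 to 0.04) for ApoE-Stab2-KO minus ApoE-KO, 0.01 (-0.08 to 0.10) for ApoE-Stab1-KO minus ApoE-KO and -0.05 (-0.14 to 0.03) for ApoE-Stab2-KO minus ApoE-Stab1-KO, none past the threshold.

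Cgn encodes cingulin, a cytoplasmic protein that binds ZO-1 and actomyosin at tight junctions. Its log2 level lay at 4.53 to 4.76 with a median of 4.67 in the ApoE-Stab2-KO arrays and at 4.81 to 5.55 with a median of 5.14 in the ApoE-Stab1-KO arrays. It was 4.80, 4.75, 4.74, 4.87 and 4.71 in the ApoE-KO arrays and 4.56 to 5.04 with a median of 4.72 in the wildtype arrays. The ApoE-Stab2-KO and ApoE-Stab1-KO arrays did not overlap, which was the case for 0.806% of all genes, while the ApoE-Stab1-KO arrays reached into the range of the ApoE-KO and wildtype ones.

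With ApoE-Stab2-KO plasma, Cgn averaged 4.65 ± 0.09 (SD, n = 6), against 5.17 ± 0.26 (SD, n = 6) with ApoE-Stab1-KO plasma. It fell by 0.52 with an SE of 0.09 (0.697-fold, limma adjusted p = 0.0269) and was the 1 of 9 members called in this comparison, where 0.0486% of all genes were. The call was lost without ApoE-Stab2-KO replicate 2 (0.0565), 3 (0.0907), 4 (0.0686) or 5 (0.0657). It was also lost when only these 12 arrays entered the fit (0.123) and, in an alternative chosen after seeing the data, when only protein-coding genes were tested (0.0628).

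Relative to wildtype, Cgn differed by 0.39 ± 0.09 (SE, 95% interval 0.20 to 0.58) with ApoE-Stab1-KO plasma, which did not pass (limma adjusted p = 0.0716). It passed without ApoE-Stab1-KO replicate 6 (0.021) or Wildtype replicate 3 (0.0447) and among genes above the median level (0.0448). The difference of ApoE-Stab1-KO minus ApoE-KO was also 0.39 (0.19 to 0.60, adjusted p = 0.56). Cgn with ApoE-Stab2-KO plasma differed from wildtype by -0.13 (-0.33 to 0.06), and with ApoE-KO plasma its mean was 4.78 ± 0.06 (SD, n = 5), against 4.78 ± 0.19 (SD, n = 6) with wildtype plasma.

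**Figure D2:**
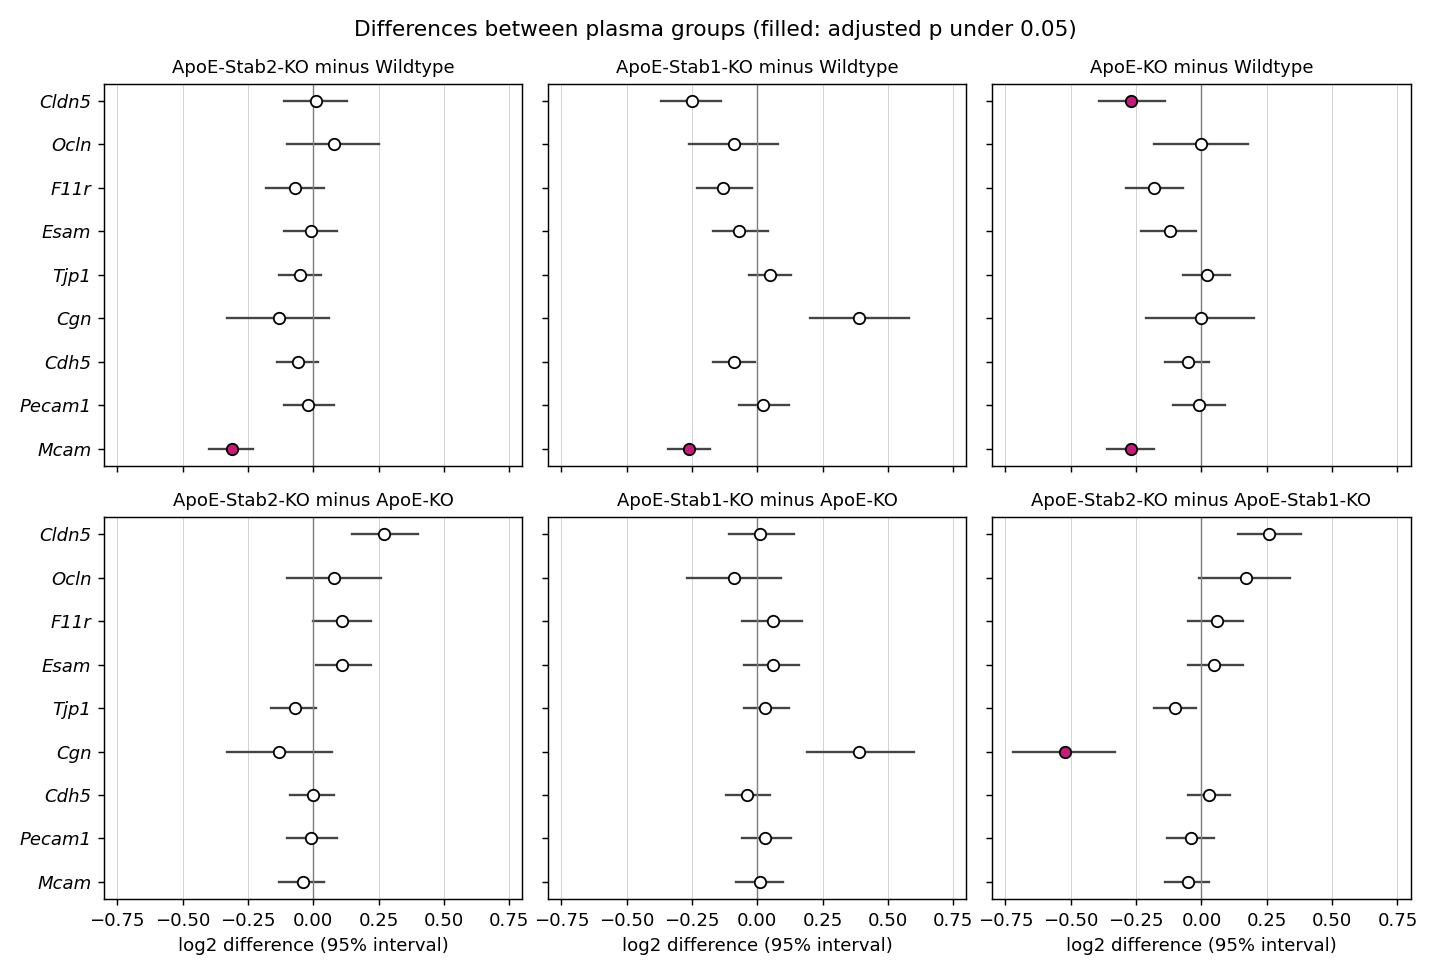
Log2 difference (x axis, points) with its 95% interval (lines) for the 9 genes (rows) in the 6 comparisons of plasma groups (panels), filled where the adjusted p was under 0.05. Mcam is filled in all 3 comparisons with wildtype, Cldn5 in that of ApoE-KO with wildtype and Cgn in that of ApoE-Stab2-KO with ApoE-Stab1-KO.

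F11r encodes junctional adhesion molecule A, which takes part in the assembly of tight junctions. Its log2 level was 10.59, 10.54, 10.33, 10.54 and 10.60 in the ApoE-KO arrays and 10.65 to 10.79 with a median of 10.70 in the wildtype arrays. These 2 groups did not overlap, as was the case for 1.98% of all genes. The difference was -0.18 ± 0.05 (SE, 95% interval -0.29 to -0.07) and did not pass (limma adjusted p = 0.156, unadjusted p = 0.00264). With ApoE-Stab1-KO plasma the difference from wildtype was -0.13 (-0.23 to -0.02, adjusted p = 0.352) and with ApoE-Stab2-KO plasma -0.07 (-0.18 to 0.04, 0.766). The order of the means, 10.52 with ApoE-KO, 10.58 with ApoE-Stab1-KO, 10.63 with ApoE-Stab2-KO and 10.70 with wildtype plasma, is a description, since F11r passed in no comparison of plasma groups.

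Esam encodes an adhesion molecule of endothelial tight junctions. Its mean was 11.29 ± 0.12 (SD, n = 5) with ApoE-KO and 11.41 ± 0.04 (SD, n = 6) with wildtype plasma, a difference of -0.12 (95% interval -0.23 to -0.02) that did not pass (limma adjusted p = 0.376). Without ApoE-KO replicate 3 it was -0.07 (0.657). The difference from wildtype was -0.07 (-0.17 to 0.04) with ApoE-Stab1-KO and -0.01 (-0.11 to 0.09) with ApoE-Stab2-KO plasma. ApoE-KO replicate 3 was the lowest array of its group for F11r, Esam, Pecam1, Ocln and Mcam, and shared the lowest Cldn5 value with ApoE-KO replicate 2.

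Cdh5 encodes VE-cadherin, the cadherin of endothelial adherens junctions, and its 23 values spanned only 12.60 to 12.87. It differed from wildtype by -0.06 (95% interval -0.14 to 0.02) with ApoE-Stab2-KO, -0.09 (-0.17 to -0.01) with ApoE-Stab1-KO and -0.05 (-0.14 to 0.03) with ApoE-KO plasma, none past the threshold. Pecam1 encodes PECAM-1, and its differences from wildtype were -0.02 (-0.11 to 0.08), 0.02 (-0.07 to 0.12) and -0.01 (-0.11 to 0.09) for ApoE-Stab2-KO, ApoE-Stab1-KO and ApoE-KO plasma in that order. For both genes, these intervals do not reach the differences of Mcam from wildtype, but differences between probe sets depend on the probes.

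Tjp1 encodes the scaffold ZO-1, to which claudins, occludin and junctional adhesion molecules bind. Its values ranged from 11.10 to 11.37, and its largest difference was -0.10 (95% interval -0.18 to -0.02) for ApoE-Stab2-KO minus ApoE-Stab1-KO, the comparison in which its partner Cgn was called (limma adjusted p = 0.337 for Tjp1). Ocln encodes occludin, a tight junction protein with 4 passes through the membrane. Its values ranged from 5.25 to 5.75, its differences from wildtype were 0.08 (-0.10 to 0.25) with ApoE-Stab2-KO, -0.09 (-0.26 to 0.08) with ApoE-Stab1-KO and 0.00 (-0.18 to 0.18) with ApoE-KO plasma, and its difference of ApoE-Stab2-KO minus ApoE-Stab1-KO was 0.17 (-0.01 to 0.34, adjusted p = 0.483).

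Among the 9 genes there were 8 negative differences for ApoE-KO minus wildtype, 6 for ApoE-Stab1-KO minus wildtype and 7 for ApoE-Stab2-KO minus wildtype, where 48.8%, 48.2% and 51% of all genes were negative. For ApoE-KO minus wildtype, those of Cgn, Ocln and Pecam1 were no lower than -0.01 and changed sign in some fits with 1 array left out. The median differences of the 9 genes were -0.05, -0.09 and -0.05, against medians over all genes of 0.003, 0.004 and -0.002. At an unadjusted p under 0.05, 4, 4 and 1 of the 9 were lower, where 5.12%, 5.55% and 4.22% of all genes were. With ApoE-Stab2-KO plasma 0 of 9 passed against ApoE-KO plasma (limma, 0.0243% of all genes called), and 3 had an unadjusted p under 0.05, as did 8.36% of all genes. With ApoE-Stab1-KO plasma 0 of 9 passed against ApoE-KO plasma (0.00405% of all genes called), and 1 had an unadjusted p under 0.05, as did 5.57% of all genes.

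Of 132 further genes measured in 6 lists, 1 passed with ApoE-KO, 2 with ApoE-Stab1-KO and 0 with ApoE-Stab2-KO plasma relative to wildtype (limma adjusted p under 0.05), where 0.53%, 0.364% and 0.178% of all genes did. At an unadjusted p under 0.05 stood 27, 25 and 18 of the 132, and 10.5%, 11.3% and 8.49% of all genes. In the 3 comparisons among knockout plasmas 0 passed, with 18 at an unadjusted p under 0.05 for ApoE-Stab2-KO minus ApoE-KO, 8 for ApoE-Stab1-KO minus ApoE-KO and 9 for ApoE-Stab2-KO minus ApoE-Stab1-KO, where 8.36%, 5.57% and 11% of all genes stood. Those that passed were all higher, and 0 genes of the lists passed as lower.

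Among 22 further claudins and their relatives, Cldnd1, which encodes a claudin-domain protein, was the 1 that rose with ApoE-KO plasma (0.24 ± 0.05, SE, adjusted p = 0.0316). It averaged 9.61 with ApoE-KO and 9.36 with wildtype plasma. Of these 22 probe sets 6 lay above the median of the table. Among 22 scaffold and plaque genes, Amotl2, an angiomotin relative that links VE-cadherin to actin, rose with ApoE-Stab1-KO plasma (0.25 ± 0.05, adjusted p = 0.028) and was the 1 gene of the lists that passed the F-test (0.0444). Its differences from wildtype were 0.22 with ApoE-Stab2-KO (0.0899) and 0.20 with ApoE-KO plasma (0.108). Among 44 barrier regulators, F2r, the thrombin receptor PAR1, rose with ApoE-Stab1-KO plasma (0.21 ± 0.05, adjusted p = 0.049) and 43 did not pass. The list leaned the other way, with 28, 29 and 29 of 44 negative for ApoE-Stab2-KO, ApoE-Stab1-KO and ApoE-KO minus wildtype. Of all genes 51%, 48.2% and 48.8% were negative. At an unadjusted p under 0.05 in limma, 3, 5 and 11 of the 44 were lower, where 4.22%, 5.55% and 5.12% of all genes were. When each array was left out in turn, the call of Cldnd1 held in 4 of 11 fits, that of Amotl2 in 8 of 12 and that of F2r in 2 of 12. With only the arrays compared, all 3 calls were lost (0.0578 for Cldnd1, 0.107 for Amotl2 and 0.196 for F2r). With the replicate block, Amotl2 (0.0512) and F2r (0.0871) missed the threshold, and F2r did so with array weights as well (0.0762).

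No gene passed in the other 3 lists. In the list of 24 adherens junction partners, the median difference from wildtype was -0.02 with ApoE-Stab2-KO, -0.05 with ApoE-Stab1-KO and -0.07 with ApoE-KO plasma. At an unadjusted p under 0.05, in either direction, stood 5, 10 and 7 of them, and 8.49%, 11.3% and 10.5% of all genes. Lower at that p were 4, 7 and 3 of the 24, where 4.22%, 5.55% and 5.12% of all genes were. Its genes with the smallest F-test p were Vasp, an actin regulator (-0.07, -0.20 and -0.21 in the same order, F-test adjusted p = 0.231), and Fermt2, which encodes kindlin-2 (0.03, 0.09 and -0.06, 0.263). Among 11 adhesion molecules and tricellular proteins they were Jam3 (-0.16, -0.23 and -0.05, 0.124), which encodes junctional adhesion molecule C, and Ildr2 (-0.20, -0.08 and -0.13, 0.354). Among 9 connexins, which form gap junctions, they were Gja1, connexin 43 (0.10, 0.20 and 0.09, 0.164), and Gja3 (-0.11, 0.04 and 0.08, 0.195). Gja5, the arterial connexin 40, was singled out after its values were seen: it had the lowest difference of the lists with ApoE-KO plasma (-0.45, 95% interval -0.73 to -0.17), did not pass (0.159), and differed by -0.28 with ApoE-Stab1-KO and -0.09 with ApoE-Stab2-KO plasma.

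**Figure D3:**
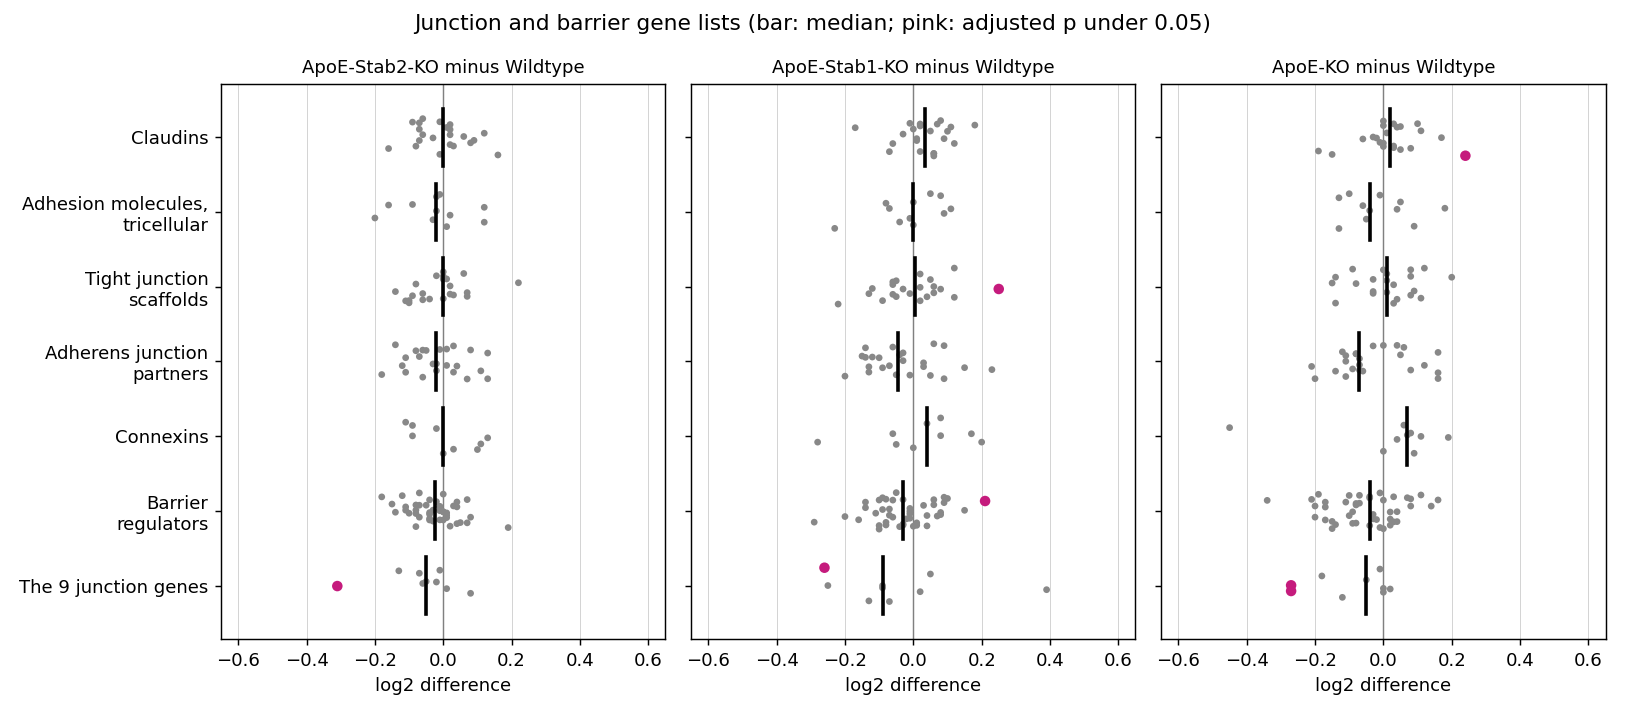
Log2 difference from wildtype plasma (x axis) of each gene (points) in 6 lists of junction and barrier genes and in the 9 junction genes (rows), for the 3 knockout plasmas (panels), with the median of each list as a bar and genes with an adjusted p under 0.05 in pink. The medians lie between -0.09 and 0.07, and Mcam with Cldn5 are the genes in pink on the negative side.

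Genes whose values ran closest to those of the called members over the 23 arrays were found by the root mean square difference after each gene was centred on its own mean. For Mcam they were the ephrin gene Efnb2 (0.078), the receptor tyrosine phosphatase gene Ptprm (0.080), Smad1 (0.089), Adgrl4 (0.092) and Ets1 (0.092), where the median gene stood at 0.181. Ptprm, whose product sits at cell contacts, fell with ApoE-Stab2-KO (-0.27, adjusted p = 0.00795), ApoE-Stab1-KO (-0.29, 0.00367) and ApoE-KO plasma (-0.31, 0.00138) relative to wildtype. Smad1, a mediator of BMP signalling, fell with ApoE-Stab2-KO (-0.25, 0.0249), ApoE-Stab1-KO (-0.26, 0.0135) and ApoE-KO plasma (-0.25, 0.0195), and Efnb2 fell with ApoE-Stab1-KO plasma (-0.21, 0.0378). With each array left out in turn, all calls of Ptprm held, those of Smad1 held in 5 of 12, 12 of 12 and 8 of 11 fits in the same order, and that of Efnb2 held in 3 of 12. With only the arrays compared, the call of Ptprm was lost with ApoE-Stab1-KO plasma (0.0855), all 3 calls of Smad1 were lost (0.0724, 0.0712 and 0.0871), and so was that of Efnb2 (0.198), which also missed with array weights (0.0578) and the replicate block (0.0512). For Cldn5 they were Fzd6 (0.086), Smim18 (0.095), Ushbp1 (0.097), She (0.099) and then Ift172, where the median gene stood at 0.199. Of these, Ift172 fell with ApoE-Stab1-KO (-0.28, adjusted p = 0.026) and ApoE-KO plasma (-0.28, 0.0324), and its difference with ApoE-Stab2-KO plasma was -0.15 (0.42). Its calls held in 7 of 12 and 4 of 11 fits with 1 array left out, and both were lost with only the arrays compared (0.108 and 0.0674). For Cgn they were Tnfrsf9, Mogat2, Gm10238, Hoxa6 and Psg16, at 0.175 to 0.187, where the median gene stood at 0.279. A gene without any variation would stand at 0.254 from Cgn, 0.159 from Cldn5 and 0.136 from Mcam. The mean levels of Tnfrsf9 (4.04), Gm10238 (2.92) and Psg16 (3.60) lay below the median of the table (4.31). So did that of Smim18 (3.23), named for Cldn5. None of the genes near Cgn passed in any comparison. The 23 arrays share their plasma groups and normalization, so this closeness is a description.

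Some markers also passed relative to wildtype plasma. Among the endothelial markers Egfl7 fell with ApoE-Stab1-KO (-0.21, limma adjusted p = 0.0122) and ApoE-KO plasma (-0.27, 0.00136), and the difference from wildtype was negative for 11 of 14 with ApoE-Stab2-KO, 9 of 14 with ApoE-Stab1-KO and 13 of 14 with ApoE-KO plasma. The epithelial keratin gene Krt19 rose with ApoE-Stab1-KO (0.26, 0.0378) and ApoE-KO plasma (0.35, 0.00362), and the mesothelial marker Msln rose with ApoE-KO plasma (0.32, 0.0342). With 1 array left out, the calls of Egfl7 and that of Krt19 with ApoE-KO plasma held in every fit, that of Krt19 with ApoE-Stab1-KO plasma held in 4 of 12 and that of Msln in 2 of 11. With only the arrays compared, the calls of Egfl7 and Krt19 with ApoE-Stab1-KO plasma were lost (0.0712 each), and that of Krt19 was also lost with array weights (0.0614) and with trend and robust eBayes (0.0951). With ApoE-Stab2-KO plasma the differences from wildtype were -0.14 for Egfl7 (0.222), 0.23 for Krt19 (0.119) and 0.23 for Msln (0.218), none past the threshold. The mean level of the 10 epithelial markers per array ranged from 4.30 to 4.36 with ApoE-Stab2-KO, 4.32 to 4.41 with ApoE-Stab1-KO, 4.35 to 4.40 with ApoE-KO and 4.30 to 4.34 with wildtype plasma. That of the 5 mesothelial markers ranged from 5.23 to 5.29, 5.11 to 5.36, 5.26 to 5.40 and 5.16 to 5.26 in the same order. Differences from wildtype were negative, in the same order, for 2, 3 and 3 of 10 epithelial and 2, 1 and 0 of 5 mesothelial markers. They were negative for 4, 0 and 3 of 8 fibroblast and 6, 6 and 5 of 7 smooth muscle markers. For macrophage markers the counts were 3, 3 and 3 of 6, for lymphatic 2, 1 and 1 of 5, and for blood cell 4, 4 and 3 of 6. Of all genes 51%, 48.2% and 48.8% were negative. The part of these markers in the differences of Cldn5 and Mcam was not tested.

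**Figure D4:**
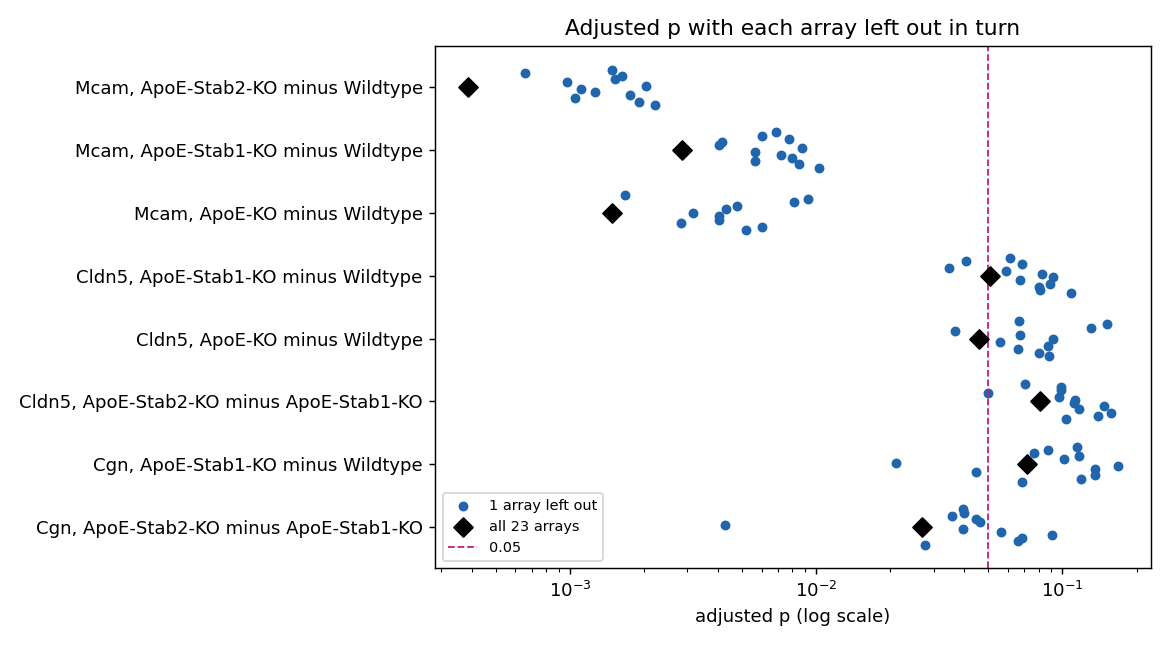
Adjusted p (x axis, log scale) of Mcam, Cldn5 and Cgn in the comparisons where they passed or came near (rows), with all 23 arrays (diamonds) and with each array of the compared groups left out in turn (points), and a dashed line at 0.05. Mcam stays under 0.05 in every fit, and Cldn5 and Cgn lie on both sides of the line.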

How the data were processed

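RNA had been hybridized as biotin-labelled cRNA to 23 Affymetrix arrays, per the labels. The authors deposited log2 values (2.52 to 13.9) that were made with RMA, per the submitters' processing notes. The version of RMA, the probe annotation and the build were not stated there. Of 25428 probe sets, 24705 carried 1 gene symbol in the platform annotation and 723 none. For a symbol on several probe sets the one with the highest mean was kept, which left 24704 genes.

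Groups came from the labels. For all tests limma 3.58.1 was run under R 4.3.3 (lmFit and eBayes, 1 mean per plasma group over all 23 arrays, 19 residual and 4.19 prior degrees of freedom, no filter). The p-values of each of the 6 comparisons and of the F-test were adjusted by Benjamini-Hochberg over all 24704 genes, and an adjusted p under 0.05 counts as passing. Errors of differences are the SE of this fit. Simulated arrays with known changes were used to check the code. The members and the gene lists were chosen with earlier results of these data known, so their counts are descriptions.

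Named genes were all 9 members, the genes of each list that passed (otherwise the 2 with the smallest F-test p), and the 5 genes closest to each called member. Egfl7, Krt19, Msln, Gja5, Gm16617, Gm13609 and the genes named for sharing the split of Mcam were picked out once values were known. The alternatives tried were a second quantile normalization, median centring, genes above the median level, trend and robust eBayes, weights per array, a block for the replicate number, only the arrays compared, every probe set as a feature, and each array left out. A fit on protein-coding genes was added after seeing the data. Figures were drawn with matplotlib 3.10.9.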

Additional observations from a re-analysis of the deposited data

Results flagged for a closer look

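Of the 36 sets of values (9 genes in 4 plasma groups) searched for an array far from the others of its group, 3 held one, where chance gives about 1 in 20. Cldn5 in ApoE-Stab1-KO replicate 3 stood at 10.57, below the other arrays of that group at 10.87 to 11.02. Without this array the difference of Cldn5 from wildtype plasma was -0.19, and it did not pass (limma adjusted p = 0.0683). F11r in ApoE-KO replicate 3 stood at 10.33, below the others at 10.54 to 10.60, and F11r in ApoE-Stab1-KO replicate 1 stood at 10.77, above the others at 10.49 to 10.59.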

How the results depend on the processing

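The calls of Mcam against wildtype plasma held in every alternative run. The number of the 9 genes that passed for ApoE-KO minus wildtype was 1 with the replicate number as a block, against 2, since Cldn5 missed the threshold (limma adjusted p = 0.0606). For ApoE-Stab1-KO minus wildtype it was 2 with each probe set as its own feature, 2 with trend and robust eBayes, 3 among genes above the median level and 2 among protein-coding genes, against 1. For ApoE-Stab2-KO minus ApoE-Stab1-KO it was 2 with trend and robust eBayes, and 0 with only the arrays compared, among protein-coding genes or with the replicate block (Cgn, 0.082), against 1. The fit on protein-coding genes was chosen after seeing the data. Deviations of same-numbered arrays from their group means correlated at -0.10 to 0.11 over all genes. The labels state no pairing, and a pairing that affects only some genes was not tested. With each array left out in turn, the number that passed was 1 to 2 for ApoE-KO minus wildtype, 1 to 2 for ApoE-Stab1-KO minus wildtype, 1 for ApoE-Stab2-KO minus wildtype, 0 to 2 for ApoE-Stab2-KO minus ApoE-Stab1-KO, 0 for both comparisons with ApoE-KO, and 2 to 3 in the F-test. Over all alternatives the number of all genes that passed ran from 55 to 212 for ApoE-KO minus wildtype (131 as reported), 21 to 151 for ApoE-Stab1-KO minus wildtype (90), 20 to 63 for ApoE-Stab2-KO minus wildtype (44), 0 to 2 for ApoE-Stab1-KO minus ApoE-KO (1), 0 to 18 for ApoE-Stab2-KO minus ApoE-KO (6), 2 to 37 for ApoE-Stab2-KO minus ApoE-Stab1-KO (12) and 87 to 198 in the F-test (135). Differences near 0 that did not pass changed sign when 1 array was left out. For ApoE-KO minus wildtype these were Cgn (-0.05 to 0.05), Ocln (-0.04 to 0.04) and Pecam1 (-0.04 to 0.02). For ApoE-Stab1-KO minus ApoE-KO they were Cldn5 (-0.02 to 0.07), Mcam (-0.00 to 0.03) and Pecam1 (-0.00 to 0.06), and for ApoE-Stab1-KO minus wildtype Pecam1 (-0.01 to 0.04). For ApoE-Stab2-KO they were Cdh5 (-0.02 to 0.02) and Pecam1 (-0.04 to 0.02) against ApoE-KO, and Cldn5 (-0.00 to 0.02) and Esam (-0.03 to 0.00) against wildtype. The cause of these changes was not tested. The number of arrays limits the precision.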
